A study of Mus musculus with 5 samples.

Results

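Genes for CC chemokines that attract monocytes, eosinophils and other myeloid cells, and for one of their receptors, were followed across mouse mammary glands and a mammary tumor: Ccl2, Ccl7, Ccl8, Ccl11, Ccl12, Ccl6, Ccl9 and Ccr2. They were taken by symbol from the gene list of the deposited files, where 8 of 8 symbols were found among 27998 genes. RNA was counted in single cells with 3' droplet sequencing, which tags each captured molecule with a unique molecular identifier (UMI). Cells were placed in classes by marker genes, none of which is one of the 8, and C1qa was read beside them. C1qa encodes a chain of complement C1q made by macrophages, and it served as the measure of macrophage RNA found in other droplets.

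The groups were 1 library of a BPK tumor, 2 of BPK 4NQO glands, 1 of a PK 4NQO gland and 1 of a BPK vehicle gland. BPK mice carried Brca1 wt/flox, Trp53 flox/flox and Krt14cre, and PK mice carried Brca1 wt/wt with the same Trp53 flox/flox and Krt14cre, so that every library came from mice with floxed Trp53. Krt14cre drives recombination from the keratin 14 promoter, which is active in basal epithelium. Glands had received 12 intraductal injections, either of 4NQO, a quinoline carcinogen that forms DNA adducts, or of PBS/PEG vehicle, and the tumor had formed after 24 injections of 4NQO. Ages are not given in the labels, nor is it stated whether the BPK 4NQO libraries came from separate animals, so p-values measure only the spread between these libraries.

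Chemokines are small secreted proteins that direct the movement of leukocytes by binding receptors on their surface. CCL2, CCL7 and CCL12 are monocyte attractants that act through CCR2, the receptor that lets monocytes leave the bone marrow and enter tissue. CCL8 belongs to the same subfamily and in the mouse also acts on CCR8. CCL11, or eotaxin, attracts eosinophils through CCR3, and eosinophils take part in the growth of mammary ducts in the mouse. CCL6 and CCL9 are chemokines of myeloid cells known from rodents and bind CCR1.

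All but Ccr2 lie in a pair of clusters on chromosome 11 (GRCm38/mm10, GENCODE M21; all 8 genes are annotated as protein-coding). Ccl2 (82035571 to 82037453), Ccl7 (82045712 to 82047525), Ccl11 (82057823 to 82062955), Ccl12 (82101845 to 82103400) and Ccl8 (82115185 to 82116799) stand in this order on the plus strand within 81229 bases. Ccl9 (83572919 to 83578636) and Ccl6 (83587882 to 83593087) stand on the minus strand within 20169 bases. Ccr2 is on chromosome 9 (124101950 to 124113557, plus strand). RefSeq promoter windows (GRCm38.p6) were found for 5 of the 8 genes, namely Ccl8, Ccl12, Ccl6, Ccl9 and Ccr2. The 250 bases before the start are shown for the genes whose RNA was highest in macrophages, since their levels in and outside macrophages are what the results turn on. Capitals mark motif matches on either strand. The TATA box was searched as TATAAA. The motif of NF-kB, a factor of inflammatory transcription, was searched as GGG, then any 5 bases and then CC. That of AP-1, a factor of the stress response, was searched as TGANTCA. The STAT motif was searched as TTCNNNGAA. The motif of ETS factors, among them the myeloid factor PU.1, was searched as GAGGAA.
Ccl8 (chr11:82114935-82115184, plus strand): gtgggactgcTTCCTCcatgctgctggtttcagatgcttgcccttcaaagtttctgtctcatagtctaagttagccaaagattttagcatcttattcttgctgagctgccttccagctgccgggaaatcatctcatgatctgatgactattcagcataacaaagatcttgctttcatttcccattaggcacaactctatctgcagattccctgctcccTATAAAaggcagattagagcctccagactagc
Ccl12 (chr11:82101595-82101844, plus strand): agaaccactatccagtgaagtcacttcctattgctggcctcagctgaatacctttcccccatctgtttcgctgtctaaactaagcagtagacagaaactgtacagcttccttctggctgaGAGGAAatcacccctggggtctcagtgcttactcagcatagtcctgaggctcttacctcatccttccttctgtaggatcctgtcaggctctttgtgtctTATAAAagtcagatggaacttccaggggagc
Ccl6 (chr11:83593088-83593337, minus strand): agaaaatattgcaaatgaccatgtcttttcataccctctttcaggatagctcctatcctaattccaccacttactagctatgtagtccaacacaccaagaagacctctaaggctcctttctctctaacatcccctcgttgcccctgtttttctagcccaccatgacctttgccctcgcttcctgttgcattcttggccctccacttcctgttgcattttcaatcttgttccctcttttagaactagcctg
Ccl9 (chr11:83578637-83578886, minus strand): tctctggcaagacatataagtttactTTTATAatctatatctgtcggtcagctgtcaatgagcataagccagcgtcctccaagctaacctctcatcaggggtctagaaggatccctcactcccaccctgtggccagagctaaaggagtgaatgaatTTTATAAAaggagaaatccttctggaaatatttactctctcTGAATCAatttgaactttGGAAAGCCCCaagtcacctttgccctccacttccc
Ccl8 and Ccl12 each held TATAAA, 32 bases before the start in Ccl8 and 31 in Ccl12, and each held GAGGAA, at 240 bases in Ccl8 and 130 in Ccl12. Ccl9 held TATAAA at 224, 94 and 92 bases, of which the last 2 overlap on opposite strands, with TGANTCA at 53 and the NF-kB motif at 35. None of these letters was found in the windows of Ccl6 or Ccr2. The Ccr2 window ran from 124101933 to 124102182 and so lay largely past the annotated gene start given above. Of 32851 promoter windows of the same length, 12.4% held TATAAA, 45.8% the NF-kB motif, 7.02% TTCNNNGAA, 6.75% TGANTCA and 23.3% GAGGAA. The matches are a description of letters and carry no claim of binding.

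After filtering, 31458 of 34526 barcodes were kept, between 2236 cells in the tumor and 8656 in the vehicle gland, and total depth ran from 27383717 to 64169843 UMIs per library. The tumor was sequenced far more deeply per cell, with a median of 15195.5 UMIs per barcode against 2523 to 4573 in the glands. BPK 4NQO replicate 2 stood apart. At most 2 of its cell barcodes recurred in another library, where the remaining pairs of libraries had 26 to 107 in common, and its fibroblasts, macrophages and endothelial cells fell into clusters of their own (93.1%, 99.0% and 96.8% of them). Macrophages made up 10.9% of its kept cells, against 0.99% to 5.9% in the other libraries. The tumor's fibroblasts were also separate, 96.0% of them in a cluster that held at most 5.05% of the fibroblasts of any gland. The labelled tissue was visible in its epithelium: luminal alveolar cells numbered 33 in the tumor and 526 to 2019 in the glands, and hormone-sensing cells 141 in the tumor and 736 to 1772 in the glands. Basal and keratinocyte cells, gated together, made up 1236 of the 2236 tumor cells.

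Over all kept cells of a library, each chemokine was higher in the BPK libraries that had received 4NQO than in the vehicle gland, with the exception of Ccl6 in replicate 1. Levels are given as CPM, the UMIs of a gene scaled to 1e+06 UMIs of all genes in the same cells. Ccl2 stood at 463 CPM in the tumor, 142 and 363 in BPK 4NQO replicates 1 and 2, 81.4 in PK 4NQO and 103 in BPK vehicle. Ccl7 stood at 347 CPM in the tumor, 98.2 and 289 in BPK 4NQO, 43.6 in PK 4NQO and 44.1 in BPK vehicle. Ccl8 stood at 69.7 CPM in the tumor, 125 and 307 in BPK 4NQO, 15.2 in PK 4NQO and 10.0 in BPK vehicle. Replicate 2 was the higher BPK 4NQO library for each gene. Ccl6 was at 39.9 CPM in the tumor, 18.5 and 253 in BPK 4NQO, 13.1 in PK 4NQO and 18.6 in BPK vehicle, and C1qa at 135, 54.3 and 286, 23.0 and 27.4 in the same order of libraries. Such levels move with the share of each cell type, so the classes were examined one by one.

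Fibroblasts and macrophages held most of the chemokine RNA, and they divided the genes between them. Of 49988 Ccl2 UMIs in kept cells, 66.9% were in fibroblasts and 8.17% in macrophages. Of 11474 Ccl11 UMIs, 78.2% were in fibroblasts and 0.174% in macrophages. At the other end, 85.2% of 1505 Ccl12 UMIs and 74.7% of 10929 Ccl6 UMIs were in macrophages, with 3.99% and 0.595% in fibroblasts. Ccl8 was split, with 30.4% of 18102 UMIs in fibroblasts and 60.5% in macrophages, and the order differed by library. Fibroblasts held 1970 of 3938 Ccl8 UMIs in the tumor, and a share of 26.1% and 21.1% in BPK 4NQO, 48.5% in PK 4NQO and 45.0% in BPK vehicle, and macrophages held 34.8%, 67.3% and 72.1%, 31.6% and 41.7% in the same order. Macrophages thus held more Ccl8 than fibroblasts in the BPK 4NQO libraries, and fibroblasts more in the other libraries. Along the chromosome Ccl2, Ccl7 and Ccl11, with most of their pooled UMIs in fibroblasts, came first and Ccl12 and Ccl8 after them. Both genes of the second cluster had most of their pooled UMIs in macrophages. Pooled shares also follow cell numbers, 2832 gated fibroblasts against 1213 macrophages. In CPM, macrophage Ccl7 was 115% of the fibroblast level in the tumor and 55.8% and 106% in BPK 4NQO. It was 20.2% in PK 4NQO and 34.2% in BPK vehicle.

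**Figure D1:**
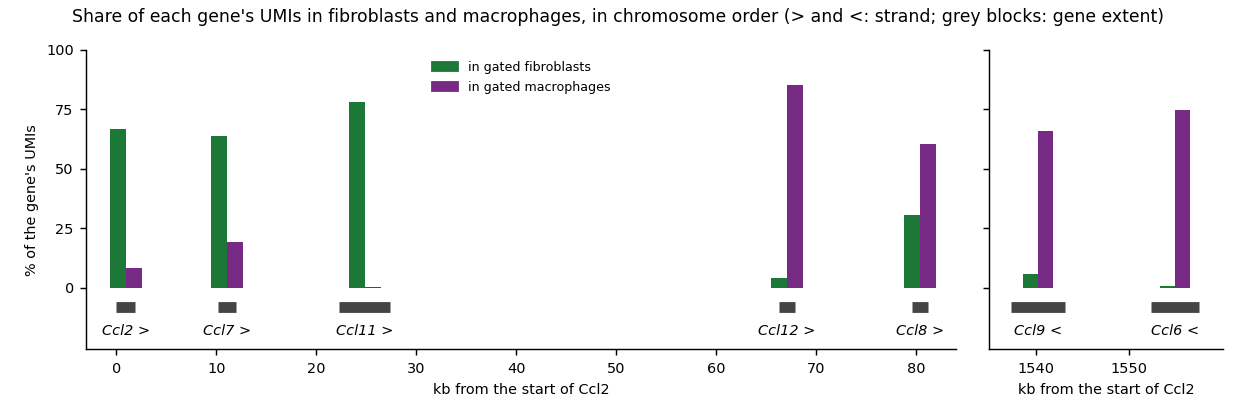
Share of each chemokine's UMIs found in fibroblasts and in macrophages (y axis, percent of the gene's UMIs in kept cells of all 5 libraries), placed by distance in kb from the start of Ccl2 on chromosome 11 (x axis, broken between the clusters). Ccl2, Ccl7 and Ccl11 had 63.7% to 78.2% of their UMIs in fibroblasts, and Ccl12, Ccl8, Ccl9 and Ccl6 had 60.5% to 85.2% in macrophages, with UMIs pooled over libraries; within single libraries the macrophage share of Ccl8 ran from 31.6% to 72.1% and that of Ccl9 from 36.4% to 77.0%.

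In fibroblasts, Ccl2, Ccl7, Ccl8 and Ccl11 were higher than in the other kept cells of the same libraries, and Ccl6 and Ccr2 were lower (edgeR quasi-likelihood test on summed counts with the library as a block, Benjamini-Hochberg adjusted over all genes). These 4 higher and 2 lower of 8 compare with 20.1% of 13225 genes tested called higher and 24.7% called lower, since fibroblasts differ from other cells in much of their RNA. The log2 fold change was largest for Ccl11, at 5.87 (SE 0.34, adjusted p 1.02e-05). Ccl2 had 5.20 (SE 0.55, adjusted p 0.000177), Ccl7 5.22 (SE 0.70, adjusted p 0.000612) and Ccl8 3.53 (SE 0.73, adjusted p 0.00542). The Ccl8 call was lost without the library block (log2 fold change 2.44). Ccl6 had -4.46 (SE 0.29, adjusted p 1.51e-05) and Ccr2 -3.45 (SE 0.76, adjusted p 0.00708), the second lost without BPK 4NQO replicate 2 (-1.78). Ccl9 (0.09, SE 0.99) and Ccl12 (-0.54, SE 0.90) did not pass.

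The fibroblast levels were high in every library. Ccl2 was at 4151 CPM in tumor fibroblasts (exact Poisson 95% interval 4089 to 4212, counting error only), 2707 and 1208 in BPK 4NQO replicates 1 and 2, 2210 in PK 4NQO and 2277 in BPK vehicle. Ccl7 was at 2958 CPM in the tumor, 2039 and 809 in BPK 4NQO, 1198 in PK 4NQO and 1014 in BPK vehicle. For both genes the tumor library was the highest and BPK 4NQO replicate 2 the lowest, with the other glands between. Ccl11 was at 549 CPM in the tumor, 1438 and 556 in BPK 4NQO, 905 in PK 4NQO and 581 in BPK vehicle. Here replicate 1 was the highest and the tumor the lowest, within 1.1 times of replicate 2 and the vehicle gland. Ccl8 was at 464 CPM in the tumor, 933 and 333 in BPK 4NQO, 317 in PK 4NQO and 141 in BPK vehicle, and every library with 4NQO was above the vehicle gland.

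In macrophages all 8 genes passed the same test, 7 of them higher and Ccl11 lower, beside 16.5% of 12799 genes tested called higher and 22.6% called lower. Ccl12 had the largest log2 fold change against other cells, 8.39 (SE 0.34, adjusted p 2.14e-09). It was followed by Ccl6 at 7.27, Ccl9 at 6.79, Ccl8 at 6.28, Ccr2 at 4.85, Ccl7 at 3.33 and Ccl2 at 1.89, with SEs from 0.21 to 0.61 and edgeR adjusted p from 1.51e-05 down to 4.01e-09. Ccl11 had -3.79 (SE 0.43, adjusted p 4.65e-06). All 8 calls held under each alternative tried, and each library left out in turn, for this comparison.

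Among macrophages, Ccl6 and Ccl9 varied less across libraries than Ccl2, Ccl7, Ccl8 and Ccl12. Ccl6 was at 1344 CPM in the tumor, 1168 and 1792 in BPK 4NQO, 1457 in PK 4NQO and 1335 in BPK vehicle. Ccl9 was at 607 CPM in the tumor, 884 and 778 in BPK 4NQO, 960 in PK 4NQO and 938 in BPK vehicle. On a log2(CPM + 1) scale their SD over 5 libraries was 0.23 for Ccl6 and 0.27 for Ccl9, against 1.51 for Ccl8, 1.5 for Ccl7, 1.21 for Ccl2 and 0.98 for Ccl12. Ccl8 was at 1371 CPM in the tumor, 8047 and 1854 in BPK 4NQO, 1084 in PK 4NQO and 459 in BPK vehicle. BPK 4NQO replicate 1 was thus more than 4 times above every other library for Ccl8, and the vehicle gland was the lowest. Ccl7 was at 3413 CPM in the tumor, 1138 and 855 in BPK 4NQO, 242 in PK 4NQO and 347 in BPK vehicle, and Ccl2 at 1769, 472 and 630, 179 and 342 CPM in the same order of libraries. Both were highest in the tumor and lowest in the PK 4NQO and vehicle glands. A single cell held 35.0% of the macrophage Ccl7 UMIs of BPK 4NQO replicate 1 and 28.6% of those of PK 4NQO. Without it the levels were 765 and 174 CPM. For Ccl2 in PK 4NQO 1 macrophage held 10 of 26 UMIs, and the level was 112 CPM without it. Ccl12 was at 595 CPM in the tumor, 398 and 137 in BPK 4NQO, 235 in PK 4NQO and 122 in BPK vehicle.

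**Figure D2:**
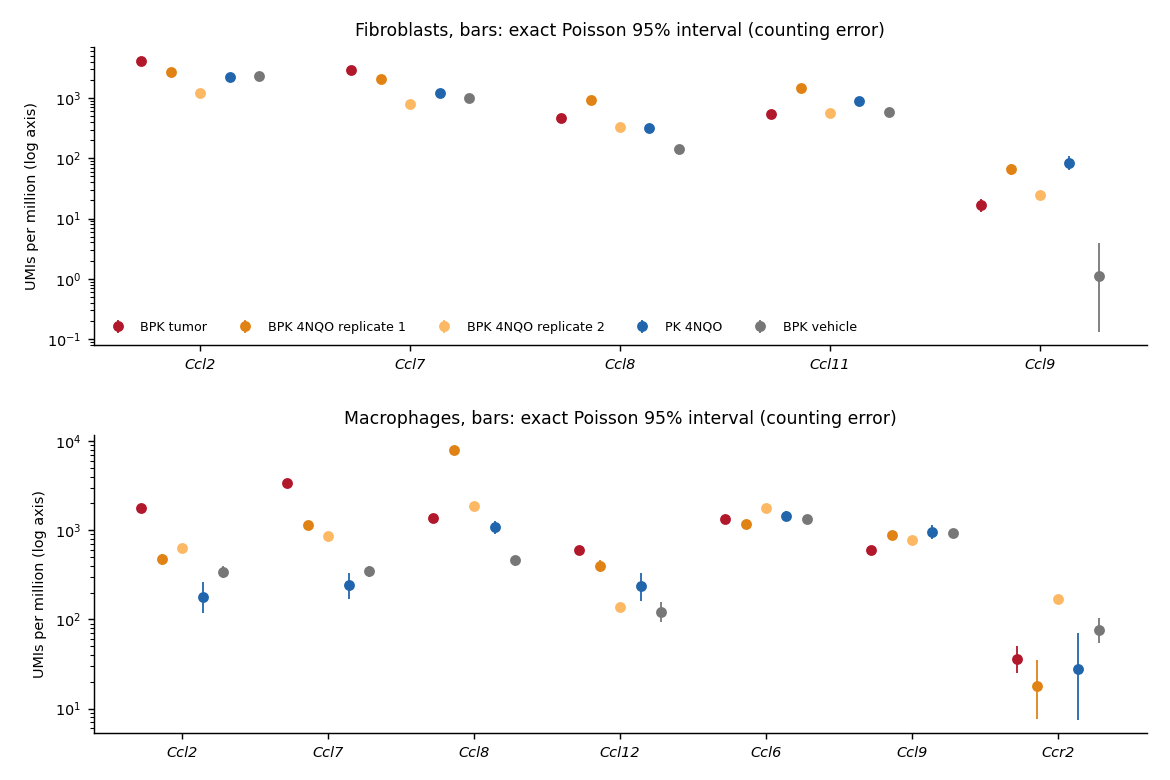
Level of the chemokines in fibroblasts (upper panel) and of the chemokines and Ccr2 in macrophages (lower panel), in CPM on a log axis, 1 point per library with its exact Poisson 95% interval. Macrophage Ccl6 and Ccl9 lie close together across libraries, whereas macrophage Ccl8 runs from 459 in BPK vehicle to 8047 in BPK 4NQO replicate 1, and fibroblast Ccl9 is near 1 in BPK vehicle.

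Pericytes and smooth muscle carried Ccl2, Ccl7 and Ccl11 as well, and the other classes lay lower for these genes. Mean log2(CPM + 1) of Ccl2 was 11.19 ± 0.64 in fibroblasts (SD, n = 5), 9.27 ± 0.18 in pericytes or smooth muscle (n = 4), 8.98 ± 1.21 in macrophages (n = 5) and 6.68 ± 1.21 in endothelial cells (n = 5). Fibroblasts stood above the next class by more than the larger SD, while pericytes and macrophages did not differ beyond theirs. Ccl7 was at 10.48 ± 0.77 in fibroblasts and 9.6 ± 1.5 in macrophages (n = 5 each), a gap within the spread, and at 7.84 ± 0.95 in pericytes or smooth muscle (n = 4). Ccl11 was at 9.54 ± 0.61 in fibroblasts (n = 5) and 9.29 ± 0.54 in pericytes or smooth muscle (n = 4), which did not differ beyond the spread, and at 5.15 ± 1.32 in endothelial cells (n = 5). In pericytes of the glands Ccl11 was 46.0% to 130% of the fibroblast level of the same library, whereas the summed fibroblast markers there were 1.43% to 3.54% of theirs. Ccl8 was at 10.64 ± 1.51 in macrophages and 8.51 ± 0.98 in fibroblasts (n = 5 each) and at 2.73 ± 1.61 in basal or keratinocyte cells (n = 5), the next class. Ccl12, Ccl6 and Ccl9 stood at 7.96 ± 0.98, 10.46 ± 0.23 and 9.68 ± 0.27 in macrophages (n = 5), 5.68, 8.18 and 5.22 above the next class ranked. Monocytes, dendritic cells and neutrophils had too few cells to be ranked. Ccl9 was at 541 CPM in 17 monocytes of BPK 4NQO replicate 2, at 0 in 10 of replicate 1 and at 282 CPM in 43 tumor neutrophils.

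**Figure D3:**
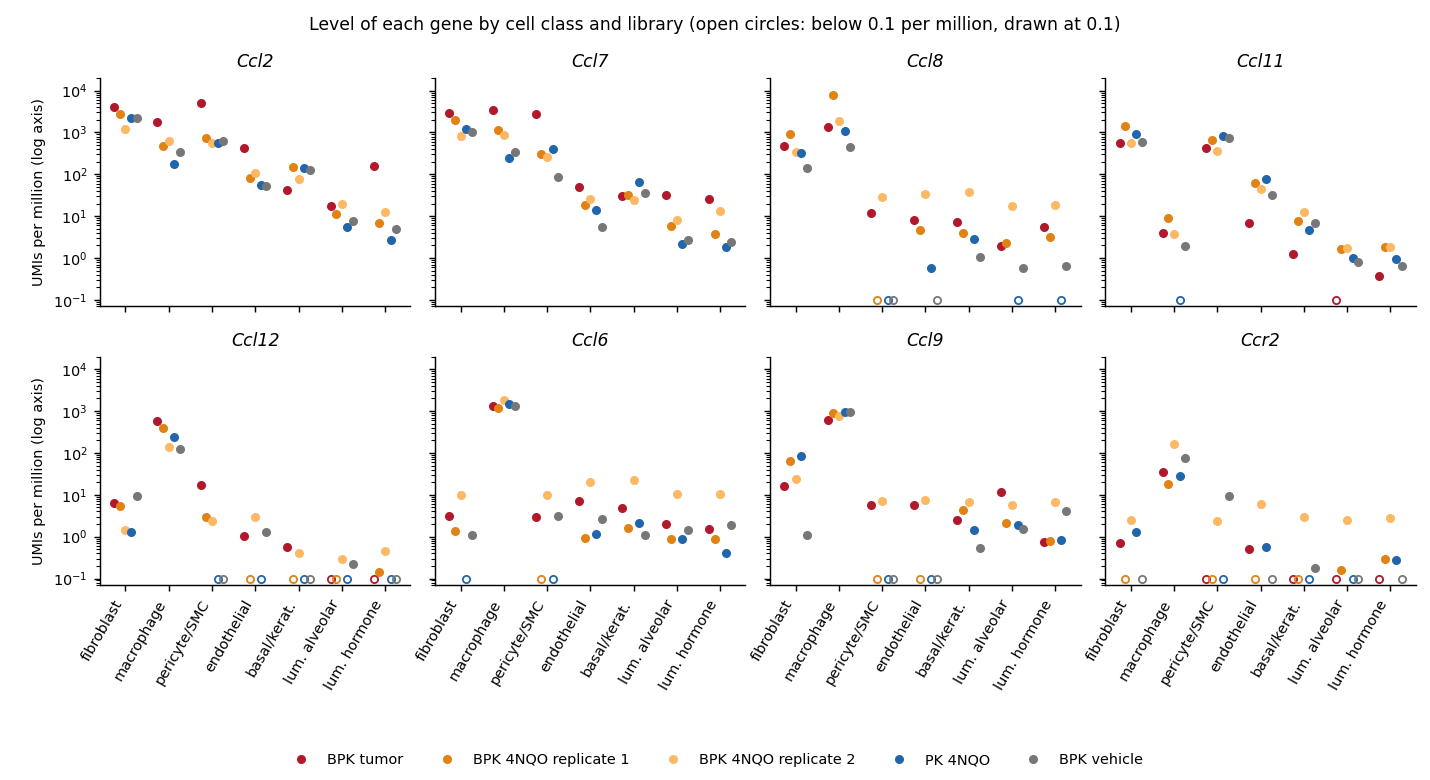
Level of each of the 8 genes in 7 cell classes, in CPM on a log axis, 1 point per library (open circles, under 0.1 CPM). Ccl2, Ccl7 and Ccl11 are high in fibroblasts and pericytes or smooth muscle (SMC), and Ccl2 and Ccl7 in macrophages as well. Ccl8, Ccl12, Ccl6 and Ccl9 are high in macrophages, with BPK 4NQO replicate 2 usually the highest point in the classes where they are low.

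The share of cells with a UMI differed by gene and library. Each cell was thinned to 1000 UMIs to remove depth differences, and cells with fewer UMIs were left out. Fibroblasts that remained were 247 of 248 in the tumor and 380 of 416 and 964 of 1065 in BPK 4NQO. In PK 4NQO 262 of 377 remained, and in BPK vehicle 662 of 726. Among those, Ccl2 was seen in 66.8% of tumor fibroblasts, 47.6% and 42.3% in BPK 4NQO, 39.3% in PK 4NQO and 45.8% in BPK vehicle. Without thinning the shares of all gated fibroblasts were 85.1%, 59.6% and 60.9%, 38.7% and 51.5% in the same order, at median depths of 14981, 2759.5 and 3779, 1500 and 2241.5 UMIs. In T cells, which should lack Ccl2, the thinned shares were 1.20% and 2.75% in BPK 4NQO and 0% in PK 4NQO, at median depths of 1272, 1158 and 1045.5 UMIs. The 10% of fibroblasts with the most Ccl2 held 40.1% of its thinned UMIs in the tumor, 50.9% and 52.5% in BPK 4NQO, 60.8% in PK 4NQO and 57.6% in BPK vehicle. Ccl2 and Ccl7 tended to be seen in the same cells: Ccl7 was found in 81.8% of tumor fibroblasts with Ccl2 against 25.6% of those without, in 55.2% against 25.6% and 44.4% against 24.1% in BPK 4NQO, in 49.5% against 15.1% in PK 4NQO and in 42.6% against 14.2% in BPK vehicle. Macrophages gave the same order in all 5 libraries, for Ccl7 by Ccl2 and for Ccl9 by Ccl6 (64.6% against 24.7% in the tumor, 48.9% against 13.8% and 48.9% against 33.0% in BPK 4NQO, 64.7% against 10.8% in PK 4NQO and 55.7% against 32.8% in BPK vehicle). Ccl11 was found in 31.5% of tumor fibroblasts with Ccl2 against 19.5% of those without, in 58.6% against 57.8% and 36.5% against 30.2% in BPK 4NQO, in 39.8% against 42.1% in PK 4NQO and in 35.6% against 34.3% in BPK vehicle. These shares are descriptions of cells, which are not replicates.

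Treatment with 4NQO was examined in BPK glands, against the vehicle gland, in 7 classes. Ccl8 was higher after 4NQO in basal or keratinocyte, endothelial, luminal alveolar and luminal hormone-sensing cells, and Ccl9 was higher in fibroblasts. In all, 41 of 56 possible tests passed the filter on low counts and 5 were called, each higher, beside 0.379% of 70220 tests over all genes and these classes. The median log2 fold change was 1.09 over the 41, against 0.02 over all genes. The spread comes from the BPK 4NQO pair alone, so the single libraries are taken to vary like it. Replicate 2 stood apart in barcodes and clusters, so a technical part of this spread cannot be told apart. The 5 calls were not made by DESeq2 (adjusted p 0.065 for Ccl9 and 0.469 to 1.0 for Ccl8).

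Ccl9 in fibroblasts was the call in a class of its own. It stood at 65.4 and 24.2 CPM in BPK 4NQO replicates 1 and 2, from 98 and 119 UMIs, against 1.09 CPM from 2 UMIs in BPK vehicle. Both BPK 4NQO libraries were above the vehicle gland, as were PK 4NQO at 84.1 CPM and the tumor at 16.5 CPM. A single cell held 48.4% of the Ccl9 UMIs of PK 4NQO fibroblasts and 47.1% of those of tumor fibroblasts, which were at 43.7 and 8.74 CPM without it. The ratio of BPK 4NQO to vehicle was 40.9 (exact 95% interval 11.3 to 338, covering the counting error of the vehicle gland alone; edgeR adjusted p 0.0167), beside 0.286% of 10505 genes called in fibroblasts. UMIs were found in 29 of 416 and 44 of 1065 fibroblasts in BPK 4NQO and in 2 of 726 in BPK vehicle, which thinned to 1000 UMIs gave 3.42% and 1.45% against 0.302% of cells. The cell with the most held 15 and 20 UMIs in BPK 4NQO, and without such cells the log2 fold change was 5.85 (SE 1.30, adjusted p 0.00564). C1qa was in none of the 29 Ccl9-bearing fibroblasts of replicate 1 and in 3 of the 44 of replicate 2 (6.82%, against 5.39% of the other fibroblasts). As a share of the macrophage level, fibroblast Ccl9 was 7.41% and 3.11% in BPK 4NQO and 0.117% in vehicle, and C1qa 0.0715% and 0.576% in BPK 4NQO and 0.070% in vehicle. These cells had more UMIs than other fibroblasts (medians of 4586 against 2692 in replicate 1 and 7895.5 against 3669 in replicate 2), and more of them carried Ccl7 (86.2% against 48.3%, and 77.3% against 48.7%) and Csf2, the cytokine GM-CSF (3 of 29 cells or 10.3% against 0.775%, and 7 of 44 or 15.9% against 3.04%). Csf2 had the opposite order in the tumor (3.85% against 16.2%) and in PK 4NQO (0% against 1.68%). The part of depth in these shares was not tested.

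Ccl8 outside its sources was a matter of few UMIs. In basal or keratinocyte cells it stood at 4.02 and 38.7 CPM in BPK 4NQO against 1.07 in BPK vehicle (log2 fold change 3.96, SE 0.89, edgeR adjusted p 0.0020, beside 0.974% of 11606 genes called). In luminal alveolar cells it stood at 2.27 and 17.1 CPM in BPK 4NQO against 0.581 in vehicle (3.74, SE 0.89, adjusted p 0.011, beside 0.434% of 13135 genes). Replicate 2 was 7 to 10 times above replicate 1 in both classes. In hormone-sensing cells the levels were 3.26 and 18.1 CPM in BPK 4NQO against 0.649 in vehicle (3.73, SE 0.94, adjusted p 0.0254, beside 0.322% of 12714 genes). That call was lost with cells taken from named clusters (adjusted p 0.126) and with a stricter gate (0.0813). In endothelial cells Ccl8 had 15 and 45 UMIs in BPK 4NQO and 0 in vehicle, at least 14.7-fold higher in BPK 4NQO against a floor of 3 counts per library (adjusted p 0.00572, beside 0.198% of 10604 genes). Without replicate 2 that bound was at least 3.65-fold, and the log2 fold changes were 1.82 in basal, 1.88 in alveolar and 2.31 in hormone-sensing cells, values with no test because no residual degree of freedom was left.

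The levels of Ccl8 in these classes were set beside those of C1qa. Relative to macrophages, both were highest in BPK 4NQO replicate 2 in each epithelial class. As a share of the macrophage level of the same library, Ccl8 in basal or keratinocyte cells was 0.521% in the tumor, 0.050% and 2.09% in BPK 4NQO, 0.264% in PK 4NQO and 0.232% in BPK vehicle, and C1qa there was 0.135%, 0.0976% and 1.45%, 0.0408% and 0.0757% in the same order. In hormone-sensing cells Ccl8 was 0.0405% and 0.979% in BPK 4NQO against 0.141% in vehicle, and C1qa 0.0419% and 0.923% in BPK 4NQO against 0.086% in vehicle. In both BPK 4NQO libraries the share of Ccl8 was thus within 2 times that of C1qa in each epithelial class. In basal or keratinocyte cells of the tumor, PK 4NQO and BPK vehicle it was more than 2 times that of C1qa. From vehicle to replicate 1 the basal share of Ccl8 fell, while that of C1qa rose. C1qa was itself called higher after 4NQO in basal or keratinocyte cells (log2 fold change 3.02, SE 0.84, adjusted p 0.0372), and its log2 fold change was 2.03 in alveolar, 2.12 in hormone-sensing and 2.69 in endothelial cells, which did not pass (adjusted p 0.702, 0.858 and 0.808). Set against the fibroblast level, basal or keratinocyte Ccl8 was 1.54% in the tumor, 0.431% and 11.6% in BPK 4NQO, 0.904% in PK 4NQO and 0.758% in BPK vehicle. The summed fibroblast markers there were 0.734%, 0.680% and 0.722%, 0.511% and 0.765% of theirs in the same order. The part of macrophage or fibroblast RNA in the Ccl8 calls was not tested. In fibroblasts the share of Ccl8 was far above that of C1qa, both against macrophages. Their Ccl8 was 33.8% of the macrophage level in the tumor, 11.6% and 18.0% in BPK 4NQO, 29.2% in PK 4NQO and 30.6% in BPK vehicle, where C1qa was at most 0.576%. The 8 macrophage marker genes summed to 93.7 CPM in tumor fibroblasts, 102 and 233 in BPK 4NQO, 112 in PK 4NQO and 155 in vehicle, with Fcgr1 at 0 in all but replicate 2.

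**Figure D4:**
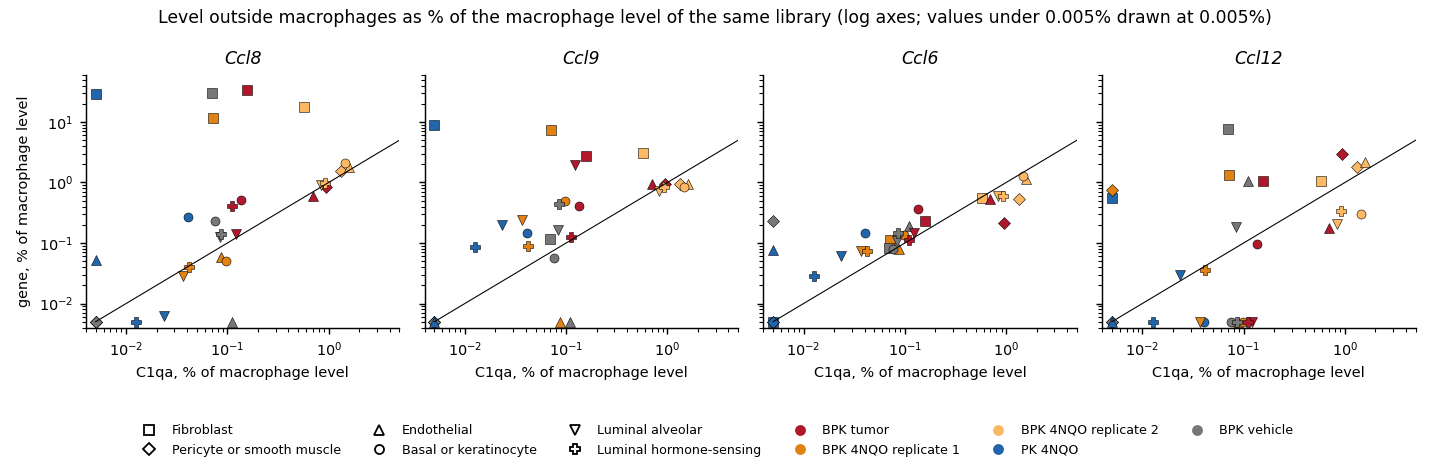
Level of Ccl8, Ccl9, Ccl6 and Ccl12 outside macrophages (y axis) and of C1qa in the same cells (x axis), each as percent of the macrophage level of the same library, on log axes with the line of equal shares. Symbols are cell classes and colors are libraries. Fibroblasts lie far above the line for Ccl8, at 11.6% to 33.8%, and for Ccl9 in every library but BPK vehicle at 0.117%, while Ccl6 stays nearer the line. Basal or keratinocyte Ccl6 was at 0.36% in the tumor, where C1qa was at 0.135%, and at 0.147% in PK 4NQO, where C1qa was at 0.0408%.

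In the sources themselves no difference between BPK 4NQO and vehicle passed, Ccl9 in fibroblasts apart. Macrophage Ccl8, at 8047 and 1854 CPM in BPK 4NQO against 459 in vehicle, had a log2 fold change of 3.42 with an SE of 1.81 (unadjusted p 0.0594, adjusted p 1.0). The test called 0 of 6110 genes in macrophages, of which 85 had an unadjusted p under 0.05, and DESeq2 called 0 with 57 under 0.05. Fibroblast Ccl8, at 933 and 333 CPM against 141 in vehicle, had 2.06 (SE 1.17, adjusted p 1.0). Fibroblast Ccl2 had -0.34 (SE 1.27), Ccl7 0.37 (SE 1.23) and Ccl11 0.66 (SE 1.19). With SEs above 1 log2 unit, differences of 2-fold could not be told from the spread in these classes.

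The Brca1 genotype was examined between BPK 4NQO and PK 4NQO glands in 8 classes, from the same model and with the same BPK 4NQO libraries, so its results are not independent of those of treatment. The PK 4NQO counts came from another version of Cell Ranger (3.0.2 against 5.0.1), which cannot be told apart from genotype here. Ccl8 was higher in BPK luminal alveolar and hormone-sensing cells, the 2 calls among 44 tests of 64 possible, beside 0.145% of 75195 tests over all genes. The median log2 fold change over the 44 was 1.30, against 0.03 over all genes. In alveolar cells Ccl8 had 29 and 60 UMIs in BPK 4NQO, at 2.27 and 17.1 CPM, against 1 UMI in PK 4NQO, a ratio of 141 (exact 95% interval 25.4 to 5590; edgeR adjusted p 4.27e-05, beside 0.251% of 13135 genes). In hormone-sensing cells it had 45 and 80 UMIs in BPK 4NQO against 0 in PK 4NQO, at least 25.8-fold higher in BPK 4NQO (adjusted p 0.000383, beside 0.173% of 12714 genes). Both BPK libraries were above the PK library in either class. From replicate 1 alone the ratio was 33.1 (5.94 to 1310) in alveolar cells, and the bound was at least 7.86-fold in hormone-sensing cells. The hormone-sensing call was lost with named clusters (adjusted p 0.0844), and DESeq2 made neither call (adjusted p 0.22 and 0.76).

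C1qa moved the same way in these cells. Its log2 fold change between BPK and PK was 3.95 (SE 0.99, adjusted p 0.0417) in hormone-sensing and 2.94 (SE 0.81, adjusted p 0.0876) in alveolar cells, and in endothelial cells it had 0 UMIs in PK 4NQO (adjusted p 0.0236). The PK 4NQO gland held 69 macrophages, 0.99% of its cells, against 1.94% and 10.9% in the BPK 4NQO glands. Ccl8 was 0.00632% of the macrophage level in PK alveolar cells, where C1qa was 0.0235%. In fibroblasts the test called 0 of 10505 genes, of which 243 had an unadjusted p under 0.05 (DESeq2 called 0, with 67). Fibroblast Ccl8 had a log2 fold change of 1.00 (SE 1.10) and Ccl2 of -0.19 (SE 1.27). Macrophage Ccl7, at 1138 and 855 CPM in BPK 4NQO against 242 in PK 4NQO, had 1.82 (SE 1.59), and macrophage Ccl2, at 472 and 630 CPM in BPK 4NQO against 179 in PK 4NQO, had 1.34 (SE 1.51), neither of which passed (adjusted p 1.0).

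The tumor was set against the BPK 4NQO glands in 6 classes. Ccl11 was lower in tumor basal or keratinocyte cells and tumor endothelial cells, and Ccl2 was higher in tumor hormone-sensing cells. These 3 calls came from 39 tests of 48 possible, beside 4.53% of 66130 tests over all genes (2.09% higher and 2.44% lower), and the median log2 fold change was -0.65 over the 39, against -0.12 over all genes. Tumor and number of injections cannot be told apart, since the tumor came after 24 injections and the glands after 12.

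Endothelial Ccl11 was at 6.73 CPM in the tumor, from 13 UMIs, against 61.2 and 44.9 CPM in BPK 4NQO, and PK 4NQO at 78.0 and BPK vehicle at 31.4 CPM were above the tumor as well. The log2 fold change was -2.86 (SE 0.87, edgeR adjusted p 0.0323, beside 4.18% of 10756 genes called), and it was lost without the filter on low counts. Only 3 of 155 tumor endothelial cells held Ccl11, against 65 of 1077 and 42 of 467 in BPK 4NQO. Ccl11 in tumor endothelial cells was 1.23% of the fibroblast level, where the summed fibroblast markers were 0.418% of theirs. The Ccl11 share stood further above that of the markers in the glands: Ccl11 was 4.26% and 8.08% of the fibroblast level in BPK 4NQO, 8.62% in PK 4NQO and 5.40% in vehicle, where the markers were 0.487% and 1.14%, 0.397% and 0.493% of theirs. Of the tumor's endothelial cells 86.5% lay in a cluster that held 18.5% of those of replicate 1 and 1.28% of those of replicate 2.

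Basal or keratinocyte Ccl11 was at 1.27 CPM in the tumor against 7.51 and 12.8 in BPK 4NQO (log2 fold change -2.48, SE 0.80, adjusted p 0.0172, beside 16.1% of 12201 genes called). As a share of the fibroblast level it was 0.232% in the tumor and 0.522% and 2.30% in BPK 4NQO, and the summed fibroblast markers were 0.734% in the tumor and 0.680% and 0.722% in BPK 4NQO. Only in replicate 2 was the Ccl11 share above that of the markers among these 3 libraries. DESeq2 made neither Ccl11 call (adjusted p 0.21 in basal and 0.086 in endothelial cells).

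Ccl2 in hormone-sensing cells was at 155 CPM in the tumor against 6.74 and 12.3 in BPK 4NQO, 2.77 in PK 4NQO and 4.83 in vehicle (tumor against BPK 4NQO, log2 fold change 4.22, SE 0.80, adjusted p 4.63e-05, beside 1.68% of 12422 genes called). A single tumor cell of 141 held 279 of the 410 UMIs. Without the cell with the most Ccl2 in each library, an alternative chosen after seeing the data, the tumor was at 49.8 CPM and the log2 fold change was 2.69 (SE 0.69, adjusted p 0.00965). With a stricter gate it was 2.06 and the call was lost (adjusted p 0.23). The summed fibroblast markers were 2.42% of the fibroblast level in these tumor cells and 1.18% and 1.21% in BPK 4NQO. Over all these cells Ccl2 was 3.73% in the tumor and 0.249% and 1.01% in BPK 4NQO. The tumor share includes the cell with 279 UMIs, without which Ccl2 was at 49.8 CPM, beside 4151 CPM in tumor fibroblasts. The part of fibroblast RNA in this call was not tested.

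In fibroblasts and macrophages of the tumor no gene of the 8 passed, beside 2.28% of 10848 genes called in fibroblasts and 0.269% of 6688 in macrophages. Fibroblast Ccl2 stood at 1.26 on the log2 scale (SE 1.28, adjusted p 0.788), Ccl7 1.22 (SE 1.21), Ccl11 -0.70 (SE 1.18) and Ccl9 -1.25 (SE 0.82). Macrophage Ccl2 had 1.83 (SE 1.33), Ccl7 1.88 (SE 1.38), Ccl8 -1.82 (SE 1.63) and Ccl12 1.22 (SE 1.26), each with an adjusted p of 1.0. The smallest unadjusted p was 0.129 in fibroblasts, for Ccl9, and 0.169 in macrophages, for Ccl2. Endothelial Ccl2, at 416 CPM in the tumor against 81.9 and 107 in BPK 4NQO, came closer with 2.28 (SE 0.78, adjusted p 0.0703), and DESeq2 called it. Alveolar Ccl7, at 31.5 CPM in the tumor from 33 cells, had 2.32 (SE 0.69, adjusted p 0.076).

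**Figure D5:**
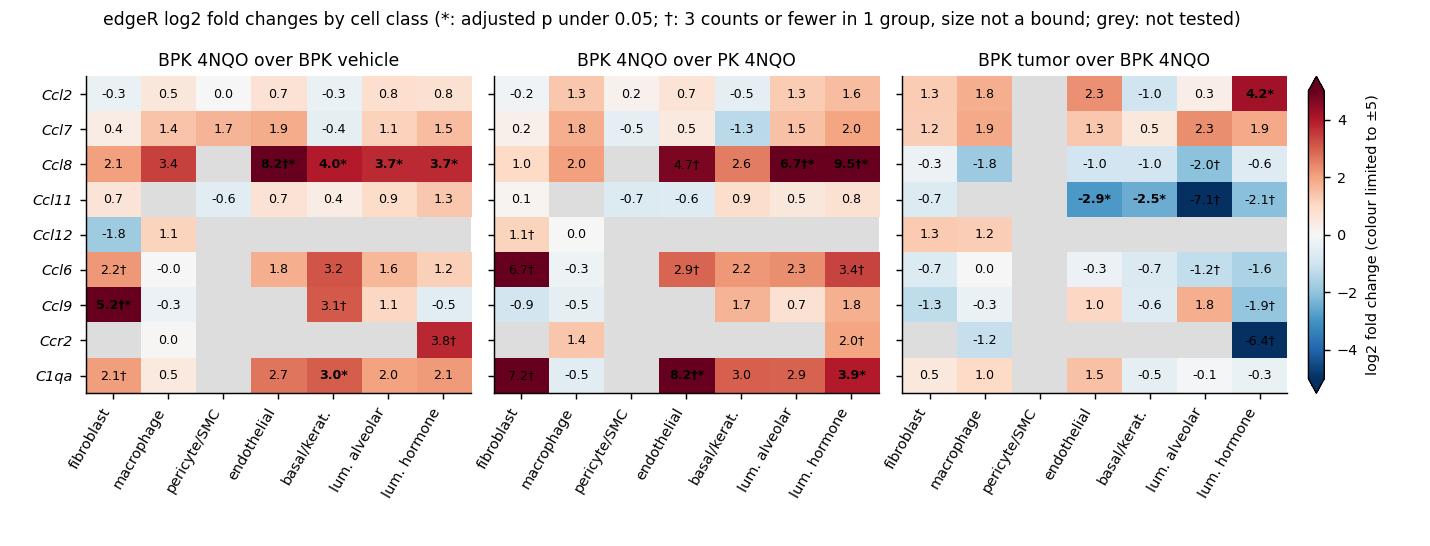
edgeR log2 fold changes of the 8 genes and C1qa (rows) by cell class (columns) in the comparisons of BPK 4NQO over BPK vehicle, BPK 4NQO over PK 4NQO and BPK tumor over BPK 4NQO. Asterisks mark an adjusted p under 0.05, daggers a group with 3 counts or fewer, whose fold change is no bound, and grey means not tested. Ccl8 carries 6 of the 10 asterisks of the chemokines, and the fold changes of C1qa are positive in the same epithelial columns of the first 2 panels.

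Basal epithelium and endothelium did not differ beyond their spread for Ccl2, at 6.61 ± 0.77 and 6.68 ± 1.21 on the log2(CPM + 1) scale (SD, n = 5 each). Basal Ccl2 stood at 41.6 CPM in the tumor's basal or keratinocyte cells, 148 and 75.8 in BPK 4NQO, 143 in PK 4NQO and 128 in BPK vehicle. In the tumor this was 1.00% of the fibroblast level, where the summed fibroblast markers were 0.734% of theirs. In the glands Ccl2 was at 5.45% to 6.45% and the markers at 0.511% to 0.765%. The difference between tumor and BPK 4NQO did not pass (log2 fold change -1.02, SE 0.82, adjusted p 0.443). Luminal cells of the glands had less, 5.62 to 19.98 CPM in alveolar and 2.77 to 12.3 in hormone-sensing cells.

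Ccr2, the receptor of the monocyte attractants, was found in macrophages and lymphocytes. Of 1442 Ccr2 UMIs, 41.1% were in macrophages, 22.5% in T cells, 3.40% in NK or innate lymphoid cells and 23.7% in cells without a class. T cells stood at 182 and 403 CPM in BPK 4NQO and 115 in PK 4NQO, from 55, 252 and 8 UMIs, and the tumor and vehicle glands had too few T cells to compare (13 and 14). Macrophages stood at 36.0 CPM in the tumor, 17.9 and 168 in BPK 4NQO, 27.6 in PK 4NQO and 77.2 in vehicle, from 36, 8 and 505, 4 and 40 UMIs. Replicate 2 thus held most macrophage Ccr2, and replicate 1 was the lowest library. Thinned to 1000 UMIs, Ccr2 was seen in 6.98% of tumor macrophages, 0.893% and 13.5% in BPK 4NQO, 1.85% in PK 4NQO and 7.03% in vehicle (13.6%, 4.41% and 28.8%, 5.80% and 11.8% without thinning). Fibroblasts, which should lack the receptor, had it in at most 0.405% of thinned cells. The comparison of BPK 4NQO with vehicle gave a log2 fold change of 0.05 (SE 1.11) in macrophages. Monocytes were rare, 38 gated cells in all, with Ccr2 at 328 and 379 CPM in the 10 and 17 monocytes of BPK 4NQO replicates 1 and 2.

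No cell was gated as an eosinophil. Of 31458 kept cells, 0 met the eosinophil gate, which allows a share of up to 0.00954% of cells that meet it in the pooled libraries but sets no limit on eosinophils that the gate misses, and Epx, the eosinophil peroxidase gene, had 0 UMIs in all. Of the other markers of that gate, Il5ra had 396 UMIs, Siglecf 16 and Prg2 6. Luminal hormone-sensing cells held 29 of the Il5ra UMIs in the tumor, 130 in BPK 4NQO replicate 1 and 46 in BPK vehicle, and macrophages held none. Macrophages of BPK 4NQO replicate 2 held 99 UMIs of the gate's markers, from Siglecf, Ear1 and Ear6. Ccr3, the receptor of CCL11, had 22 UMIs. Cells with little RNA may not have been called as cells by the authors' filter, so this limits droplets in the files rather than eosinophils in tissue.

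A list of 34 other genes of the same pathways was read beside the 8 genes. It held further CC chemokines, receptors, scavenging receptors, inducing cytokines and their receptors, growth factors of macrophages, and NF-kB and STAT genes. In fibroblasts 28 were tested against other cells, 9 higher and 11 lower, beside 20.1% of 13225 genes called higher and 24.7% lower. Csf2 (log2 fold change 5.42), Il34 (3.82) and Csf1 (3.28), which encode growth factors of myeloid cells, and Il6 (2.80) were among the higher. In macrophages 16 of 28 were higher and 6 lower, beside 16.5% of 12799 genes called higher and 22.6% lower. Among the higher were Ccl4 at 7.20, Ccr1, the receptor of CCL6 and CCL9, at 7.15 and Ccl24, a further eotaxin, at 7.11. Il34 itself had 0 UMIs in macrophages of any library. Csf1r, the receptor of CSF1 and IL34, was at 7.90 but is itself one of the 8 markers of the macrophage gate, so its difference is no result.

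After 4NQO in BPK glands 2 of 152 tests of these genes in 7 classes were called, beside 0.379% of tests over all genes, Ccl4 in endothelial cells (log2 fold change 3.76, adjusted p 0.0119; 3.45 and 77.3 CPM in BPK 4NQO against 2.58 in vehicle) and Ccl5 in fibroblasts (57.4 and 24.2 CPM in BPK 4NQO against 1.64 from 3 UMIs in vehicle, a ratio of 24.9, 8.51 to 121, adjusted p 0.0312). In the same endothelial cells C1qa was at 4.08 and 34.6 CPM in BPK 4NQO against 2.58 in vehicle, and the 8 macrophage markers summed to 60.6 and 207 CPM in BPK 4NQO against 62.8 in vehicle, with Adgre1 and Fcgr1 at 0 in replicate 1 and vehicle. Macrophage Ccl4 was at 4784 and 4647 CPM in BPK 4NQO against 5820 in vehicle. The part of macrophage RNA in the Ccl4 call was not tested. T cells made up 1.81% and 5.99% of kept cells in BPK 4NQO and 0.16% in vehicle. In fibroblasts the 6 T cell markers summed to 4.67 and 18.5 CPM in BPK 4NQO against 2.19 in vehicle. They summed to 1.31 CPM in PK 4NQO, where fibroblast Ccl5 was at 53.8 CPM. Ccl5 was called lower in fibroblasts than in other cells (log2 fold change -2.02). The part of T cell RNA in the Ccl5 call was not tested. Fibroblast Csf2, at 55.4 and 12.0 CPM in BPK 4NQO against 1.64 from 3 UMIs in vehicle, had 4.18 (SE 1.11, adjusted p 0.0531). Macrophage Ccl17 was at 51.4 and 21.2 CPM in BPK 4NQO against 1.93 from 1 UMI in vehicle and did not pass (adjusted p 1.0). Between BPK and PK the largest differences were those of macrophage Il6, with 5 and 217 UMIs in BPK 4NQO against 0 in PK 4NQO, and fibroblast Il1b, with 3 and 33 UMIs against 0, neither of which passed (adjusted p 1.0). The smallest edgeR adjusted p of these genes was 0.231, for Cx3cr1 in alveolar cells (log2 fold change 3.43, SE 1.03; 0.626 and 12.8 CPM in BPK 4NQO against 0.480 in PK 4NQO). In the tumor 12 of 148 tests of these genes were called, 7 higher and 5 lower, beside 4.53% over all genes. Il1b, an inducer of CCL2, was higher in basal or keratinocyte (2.52), endothelial (6.10), alveolar (3.79) and hormone-sensing cells (2.99), with adjusted p from 6.64e-11 to 0.0396. The 6 neutrophil markers summed higher in the same tumor cells, to 199.8 CPM in basal or keratinocyte cells against 6.97 and 63.4 in BPK 4NQO, 54.4 in endothelial cells against 13.8 and 2.95, 112 in alveolar cells against 53.6 and 26.5, and 74.8 in hormone-sensing cells against 12.6 and 7.71. Retnlg was at 0 in tumor endothelial, alveolar and hormone-sensing cells. Their part in the Il1b calls was not tested. Csf2 (3.39) and Tnf (2.11) were higher and Csf1 (-2.66), Cx3cl1 (-2.79) and the scavenging receptor gene Ackr4 (tumor 3 UMIs) lower in tumor basal or keratinocyte cells. Ackr2, whose product removes CC chemokines, was lower in tumor fibroblasts, at 0.471 CPM from 2 UMIs against 7.35 and 16.5 CPM in BPK 4NQO (25.3 times lower, exact 95% interval 7.0 to 209; adjusted p 0.0202). Ackr4 was also lower in tumor endothelial cells (0 UMIs), and Ccl5 was higher in hormone-sensing cells (4.05, adjusted p 0.000517). Macrophage Il1b, at 5481 CPM in the tumor against 561 and 709 in BPK 4NQO, had 3.26 with an SE of 1.42 and did not pass.

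The patterns of the 8 genes over classes and libraries were compared in pairs. Over 42 sums of a class in a library, Pearson's r of log2(CPM + 10) was 0.91 between Ccl2 and Ccl7 and 0.90 between Ccl6 and Ccl9, against 0.23 between Ccl2 and Ccl6 and -0.14 between Ccl11 and Ccl12. Ccl7 was at 0.78 with Ccl8, 0.60 with Ccl11, 0.59 with Ccl12 and 0.58 with Ccl9. The sums share libraries and depth, so these values are descriptions. Among 11855 other genes the closest were Axl, Cd302 and Igfbp4 for Ccl2 (r 0.879 to 0.853), Cd302, Tmem119 and Ctsk for Ccl7 (0.888 to 0.862) and Ndn, Hoxc8 and Hoxc9 for Ccl11 (0.961 to 0.953). Msr1, Cd72 and Ly86 were closest to Ccl12 (0.978 to 0.968), and Cybb, Mpeg1 and Cd300a to Ccl6 (0.977 to 0.969). AI607873, Mmp19 and Hpse were closest to Ccl8 (0.899 to 0.875), and Myo1g, Dock2 and Ikzf1 to Ccr2 (0.945 to 0.936).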

How the data were processed

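Single-cell 3' RNA libraries from 1 mammary tumor and 4 mammary glands of mice were analysed from UMI counts per gene and cell barcode, deposited as raw counts. Per the file headers, the authors made these counts with Cell Ranger 5.0.1 (3.0.2 for PK 4NQO) on mm10. Barcodes with at least 300 genes and at most 20% mitochondrial UMIs were kept, and doublets scored with Scrublet were removed at 0.8% per 1000 barcodes. Cells were gated by at least 2 markers of a class with a lead of 0.1 over other classes, limits set after seeing the data, and clustered with scanpy 1.11.5 and leidenalg 0.10.2 on variable genes that included the chemokines. The labels give version 2 chemistry for all libraries, which the barcodes of BPK 4NQO replicate 2 do not bear out.

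Counts were summed per library and class with at least 30 cells and tested with edgeR 4.0.16 (R 4.3.3): filterByExpr, TMM scaling, quasi-likelihood test, Benjamini-Hochberg adjustment over all genes of a class at 0.05. Spread between libraries came from the BPK 4NQO pair, which leaves 1 residual degree of freedom. Sources were tested as a class against all other kept cells with the library as a block. The test was tried on simulated data first. Alternatives were DESeq2 1.42.0, other scaling, no filter, a 10% mitochondrial limit, doublets kept, named clusters, a stricter gate and leaving out each library. Intervals and floors (3 counts) cover counting error only. Named genes are the 8 genes, C1qa, the genes of the pathway list that passed (or the 3 with the largest change among those with at least 30 counts, where fewer than 3 passed) and the 3 closest in pattern, which for Ccl9 are not reported here. The members and lists were chosen with earlier results of these data known.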

Additional observations from a re-analysis of the deposited data

Results flagged for a closer look

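For 3 genes, the libraries of a comparison moved one way in some cell classes and the opposite way in others. Values are mean log2 ratios of CPM over the library pairs, with every pair on the stated side of 0, and the difference between classes was not tested.

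Ccl7 in BPK 4NQO over PK 4NQO was at 2.01 in macrophages, 1.94 in hormone-sensing and 1.64 in alveolar cells, but at -1.19 in basal or keratinocyte cells. None of these passed the edgeR test.

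Ccl2 in the tumor over BPK 4NQO glands was at 4.08 in hormone-sensing cells, where 1 cell held most UMIs, 2.15 in endothelial cells, 1.70 in macrophages and 1.20 in fibroblasts, but at -1.35 in basal or keratinocyte cells. Of these the edgeR test called the hormone-sensing cells alone.

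Ccl9 in the tumor over BPK 4NQO glands was at 1.85 in alveolar cells, of which the tumor had 33, but at -1.16 in basal or keratinocyte cells and -1.27 in fibroblasts. None of these passed.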

How the results depend on the processing

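Of the alternatives, DESeq2 changed most: it called 0 of the 8 genes after 4NQO, against 5 with edgeR, and 0 between BPK and PK, against 2. With doublets kept there were 4 calls between BPK and PK, those added being Ccl6 in basal or keratinocyte (log2 fold change 3.79) and hormone-sensing cells (3.87). Other counts of calls were within 1.5 times of those reported. Of the values of single genes, 339 kept their direction and side of the threshold, 17 lost the call, 7 gained it and 10 moved. Ccl6 in basal or keratinocyte cells between BPK and PK, which did not pass, was at 2.16 with both BPK 4NQO libraries, at 2.98 without replicate 1 and at -0.42 without replicate 2, which turned its sign; the cause was not tested. Without replicate 1 or 2 the other glands' comparisons left no residual degree of freedom, so counts of calls could not be given. Scaling by relative log expression shifted the median of all genes by -0.28 in macrophages against other cells, without a change of sign. No paired analysis was possible because the groups compared share fewer than 2 replicate numbers. The calls of Ccl8 outside its sources rest on few UMIs, with 0 in vehicle endothelial and PK 4NQO hormone-sensing cells.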

Other observations

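Some cells outside the compared classes held much chemokine RNA. The 20 mast cells of BPK 4NQO replicate 2 had Ccl7 at 2928 CPM from 72 UMIs and Ccl2 at 1464 CPM from 36 UMIs. The 29 pericytes or smooth muscle cells of the tumor, too few to test, had Ccl2 at 5027 CPM, against 724 and 555 in BPK 4NQO, and Ccl7 at 2795 CPM, against 306 and 255 in BPK 4NQO; the summed fibroblast markers were 14.9% of the fibroblast level in these tumor cells and 2.04% and 3.54% in BPK 4NQO. The 43 tumor neutrophils had Ccl6 at 470 CPM and Ccl9 at 282 CPM, beside Ccr1, which encodes the receptor of both products, at 1174 CPM.

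Ccl24, a further eotaxin, was a macrophage gene. It was at 8.997 CPM in tumor macrophages, 105 and 63.1 in BPK 4NQO, 131 in PK 4NQO and 336 in BPK vehicle, so the vehicle gland was the highest and the tumor the lowest. The tumor against BPK 4NQO gave a log2 fold change of -3.10 that did not pass (edgeR adjusted p 1.0).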
